A study of Mus musculus with 21 samples.

Results

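Bulk granulocyte-monocyte progenitors (GMPs) were compared with bulk common myeloid progenitors (CMPs) from mouse bone marrow. Of the 21 libraries of the series, 6 entered this comparison, 3 of bulk GMPs and 3 of bulk CMPs, chosen by their labels, and all 47643 genes of the count table were considered. Bulk GMPs were sorted as lineage-negative, SCA-1-negative, C-KIT-positive cells that carried CD16/32 and CD34, and bulk CMPs by the same gate without CD16/32, both from C57BL/6 mice (C57/B6 in the labels) for which the labels name no treatment and no age. The study's methods give a single age range, in weeks, for all its mice. Bulk means that cells were taken whatever their level of the surface protein CD62L, by which the other libraries of the series were sorted further. The study calls the CD62L-low CMPs of the labels CD62L-neg CMPs, and the CD62L-low GMPs CD62L-int GMPs. It set the CD62L gates of CMPs and of GMPs separately and at different shares of the cells, so fractions of the same name need not have the same CD62L level. Neither the labels nor the methods say how many mice gave the cells of a library, so p-values measure the spread between these libraries, which may be technical.

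CMPs are a mixed population of the marrow from which granulocytes and monocytes on one side and megakaryocytes and erythrocytes on the other can be grown, whereas GMPs give rise to granulocytes and monocytes. Neutrophil granules are filled in order, with the primary granules, which hold myeloperoxidase and serine proteases, made at the promyelocyte stage and the secondary granules later. GATA1, GATA2, TAL1 and FOG1 (Zfpm1) act in the megakaryocytic and erythroid lineages, and C/EBP factors, PU.1 (Spi1), GFI1 and IRF8 in the granulocytic and monocytic ones.

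Bulk GMP libraries held 12193934 to 12718529 counts and bulk CMP libraries 6145834 to 7262055. One library stood apart. In bulk CMP replicate 2, 30.7% of the counts fell on protein-coding genes and 61.0% on 3 gene models that hold ribosomal RNA, while the other 5 libraries had 63.2% to 68.1% and 22.4% to 28.0%. It held 1888499 protein-coding counts, against 4454960 to 8568448 in the others, and the common biological coefficient of variation was 0.154 among bulk GMPs and 0.404 among bulk CMPs, or 0.17 among bulk CMPs without it. All results below were therefore computed with all 6 libraries and again without bulk CMP replicate 2, and a gene is said to have risen or fallen in bulk GMPs only where it was called in the same direction both times. The genes of the sort gate are a check and not a finding. Fcgr3, which encodes CD16, had 129, 138 and 122 CPM in bulk GMPs, against 7.04, 6.63 and 8.92 CPM in bulk CMPs, and the 2 populations did not overlap. Cd34 had 169.5, 167 and 159.8 CPM in bulk GMPs, against 289, 418 and 336 CPM in bulk CMPs, so that both populations carried its transcripts. Of the markers of mature erythrocytes 1 of 8 and of B cells 2 of 11 had enough counts to be tested, none of them called, and none of the 13 markers of T and NK cells did. Without bulk CMP replicate 2, 1 of these 13 was tested and called lower in bulk GMPs, Cd4, which averaged 0.286 CPM in bulk GMPs and 1.55 CPM in bulk CMPs over the 6 libraries. The globin genes Hbb-bs and Hba-a2, and Cd3e of T cells had no count in any of the 6 libraries.

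A gene was called at a fold change over 2 and a Benjamini-Hochberg adjusted p under 0.05 in edgeR's quasi-likelihood test, which are the thresholds of the study. A gene that was not called may still have an adjusted p under 0.05 with a change under 2-fold. Of 12442 genes tested, 402 (3.23%) were called higher and 741 (5.96%) lower in bulk GMPs with 6 libraries, and 573 (4.24%) and 979 (7.24%) of 13524 genes without bulk CMP replicate 2. In both fits 361 genes (2.9% of those tested, 350 of them protein-coding) rose and 666 (5.35%, 611 protein-coding) fell in bulk GMPs, and no gene was called in opposite directions. These shares are the background for every count of list members below. The 3 bulk GMP libraries lay apart from the 3 bulk CMP libraries for each of these 1027 genes, and for 38.1% of all genes tested. The median log2 fold change was 1.71 among the genes that rose, -2.20 among those that fell and 0.0 over all genes tested. Changes over 8-fold were seen in 74 genes that rose and 197 that fell, or 73 and 197 with genes at 0 counts in a population set to the bound that 3 counts allow.

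**Figure D1:**
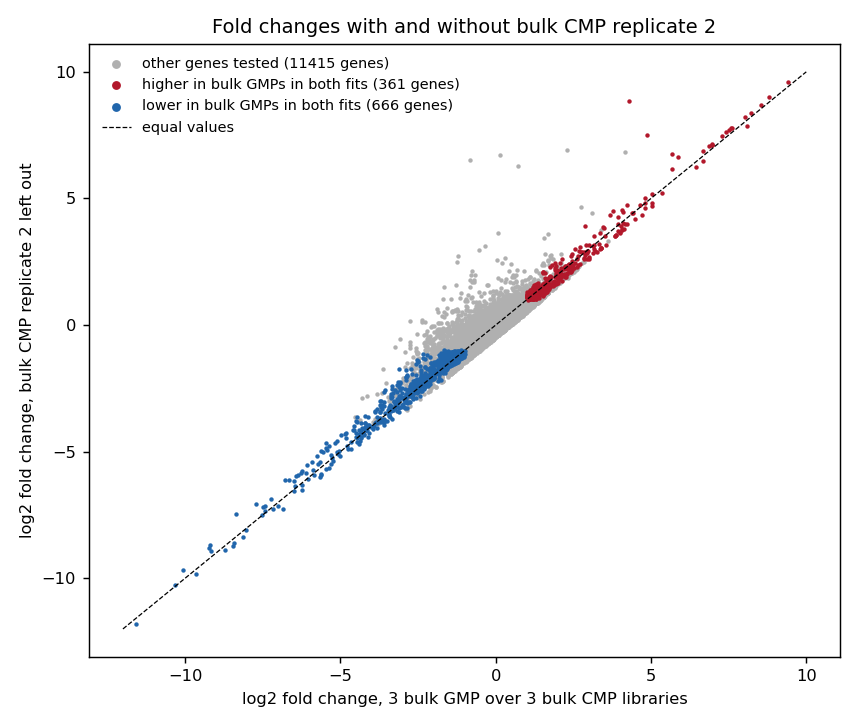
Log2 fold change of bulk GMPs over bulk CMPs with all 6 libraries (x axis) and without bulk CMP replicate 2 (y axis), with 1 point per gene tested in the 6 libraries. The 361 genes that rose (red) and the 666 that fell (blue) lie along the dashed line of equal values, and the other genes (grey) spread mostly above it.

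Mpo and Elane, which encode proteins of the neutrophil primary granule, were the most abundant of the genes that rose. Mpo (chr11:87793581-87804413, plus strand, GENCODE vM21 on GRCm38), myeloperoxidase, had 16839.6, 16102 and 16137 CPM in bulk GMPs, against 4072, 4465 and 4211 CPM in bulk CMPs (log2 fold change 1.94 ± 0.19 (SE), edgeR adjusted p = 0.000769). CPM are counts per 1000000 of the TMM-scaled library size and are not corrected for gene length. The libraries of a population lay close together, and every bulk CMP library was far below every bulk GMP library. Elane, neutrophil elastase, had 1823, 1757 and 1709.7 CPM in bulk GMPs, against 123, 242 and 116 CPM in bulk CMPs (log2 fold change 3.46 ± 0.31 (SE), edgeR adjusted p = 0.00056), and Ctsg, the granule protease cathepsin G, had 624, 627 and 562 CPM in bulk GMPs, against 150.1, 91.4 and 150.5 CPM in bulk CMPs (log2 fold change 2.21 ± 0.23 (SE), edgeR adjusted p = 0.000866). For Elane the highest value among bulk CMPs, in replicate 2, was far below the lowest among bulk GMPs. Prtn3, proteinase 3, which lies next to Elane on chromosome 10, had 945, 937 and 850.2 CPM in bulk GMPs, against 172, 391 and 159 CPM in bulk CMPs (log2 fold change 1.92 ± 0.34 (SE), edgeR adjusted p = 0.00976). Its call was lost without bulk GMP replicate 1 (edgeR adjusted p = 0.0522) and without bulk GMP replicate 2 (edgeR adjusted p = 0.051), with a log2 fold change of 1.9 in each. Both of these fits kept bulk CMP replicate 2, without which Prtn3 had a log2 fold change of 2.47 (edgeR adjusted p = 3.03e-19).

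Of the 14 measured members of the primary granule list, all were tested, 12 rose and none fell, beside 2.9% and 5.35% of all genes tested, with a median log2 fold change of 2.08. The largest changes among them were those of Clec5a, a C-type lectin receptor of myeloid cells (3.93), Elane (3.46), Ms4a3, a membrane protein used as a marker of this lineage (3.37), and Hp, haptoglobin, which binds free haemoglobin (3.20). Gstm1, a glutathione transferase, also rose (3.17), as did Prss57, another granule serine protease (2.22), Serpinb1a, an inhibitor of these proteases (1.32), and Ctsc, the cathepsin that activates them (1.04). Calr, a chaperone, had 2567, 2484 and 2455 CPM in bulk GMPs, against 1272, 402 and 1203 CPM in bulk CMPs. Nkg7, a granule membrane protein, had 54.0, 57.6 and 49.2 CPM in bulk GMPs, against 23.9, 46.4 and 12.5 CPM in bulk CMPs, and both genes were called only without bulk CMP replicate 2 (log2 fold change 1.03 and 1.57), where all 14 members were called higher. Summed over the list, its genes took 3.93%, 3.83% and 3.78% of the protein-coding counts of bulk GMPs, against 1.05%, 1.07% and 1.06% of those of bulk CMPs. The sum includes the chaperone Calr, and in which granule each product of the list is stored was not examined. Bulk CMP replicate 2 did not stand apart in this share.

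Most genes of the later granule list had few counts. Of 17 members of the secondary and tertiary granule list 7 were tested and 4 rose, namely Chil3, Fcnb, Wfdc21 and Cybb. Chil3, a chitinase-like protein, had 7.83, 8.62 and 8.59 CPM in bulk GMPs, against 0 CPM in all 3 bulk CMPs, at least 53.8-fold higher when 3 counts over the pooled bulk CMPs are taken as the floor. Fcnb, ficolin B, was at least 35.2-fold higher and Wfdc21 at least 12.2-fold higher by the same floor. Lcn2, lipocalin 2, had 5.86, 6.61 and 6.25 CPM in bulk GMPs, against 0.640, 5.76 and 0.372 CPM in bulk CMPs, with bulk CMP replicate 2 near the bulk GMPs, and was called only without that library (log2 fold change 1.68 with 6 libraries and 3.61 without it). Camp and Ltf, which encode main proteins of secondary granules, had no count in any of the 6 libraries. Cybb, the catalytic subunit of the phagocyte NADPH oxidase, had 98.1, 94.8 and 108 CPM in bulk GMPs, against 9.60, 8.07 and 8.18 CPM in bulk CMPs (log2 fold change 3.53 ± 0.18 (SE), edgeR adjusted p = 8.67e-05). Of the 7 oxidase genes Cybb and Ncf4 rose (3.53 and 1.69), and Rac1 (-0.10) and Rac2 (-0.09) were not called.

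**Figure D2:**
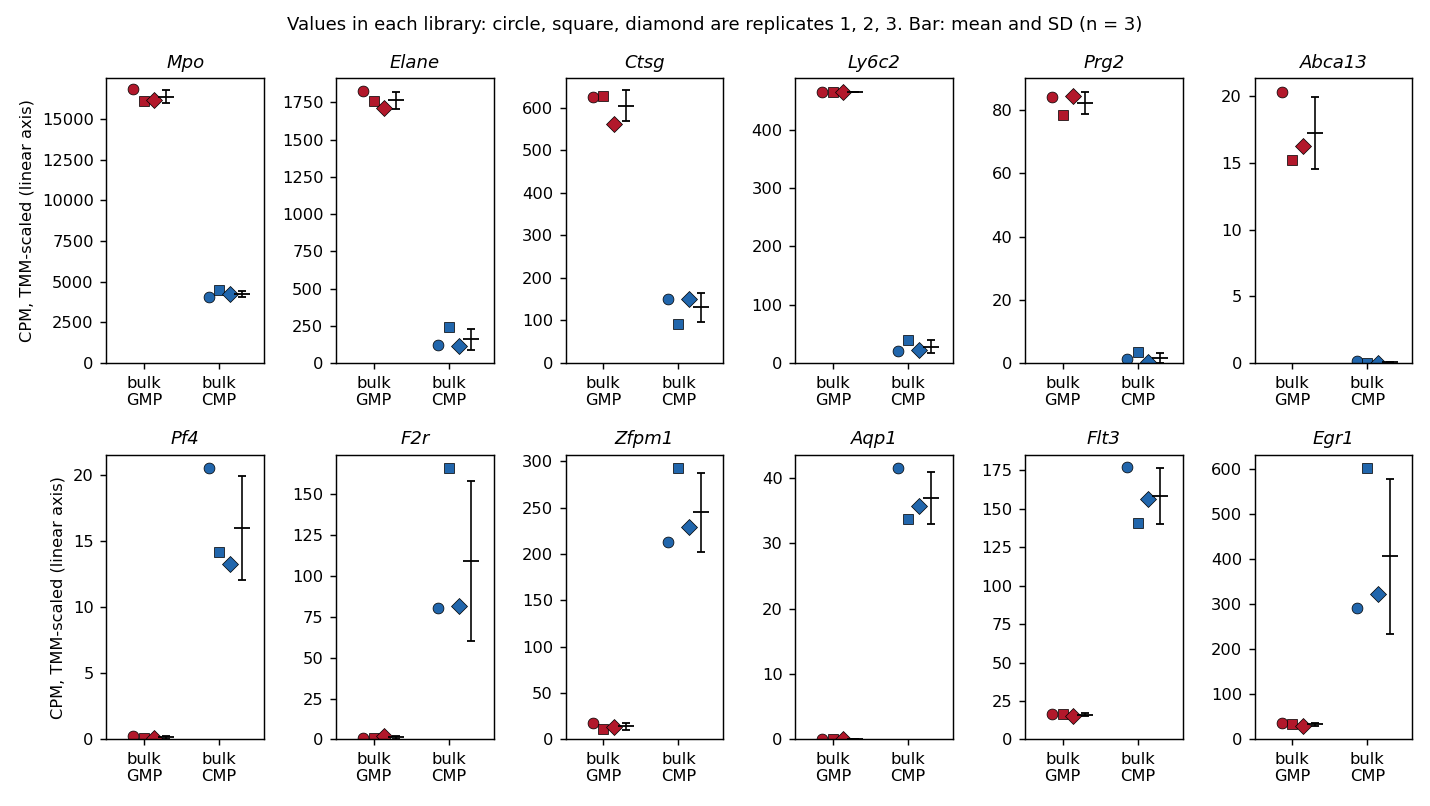
TMM-scaled CPM of 12 genes in each library on linear axes from 0, with bulk GMPs in red left of bulk CMPs in blue and the mean ± SD (n = 3) beside them. In the upper row, for example, Mpo reached 16102 to 16840 CPM in bulk GMPs and 4072 to 4465 CPM in bulk CMPs, and in the lower row Aqp1 was at 0 in bulk GMPs and between 33.7 and 41.5 CPM in bulk CMPs.

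Many genes of monocytes and macrophages rose as well. Of 25 measured members of this list 23 were tested, 12 rose and none fell, with a median log2 fold change of 1.04. Ly6c2, a surface antigen of classical monocytes, had 465, 465 and 464 CPM in bulk GMPs, against 21.2, 40.4 and 21.6 CPM in bulk CMPs (log2 fold change 4.09 ± 0.29 (SE), edgeR adjusted p = 0.000215), with nearly the same value in each bulk GMP library. Csf1r, the receptor for M-CSF, had 164, 165 and 165 CPM in bulk GMPs, against 87.0, 66.6 and 75.3 CPM in bulk CMPs (log2 fold change 1.11 ± 0.16 (SE), edgeR adjusted p = 0.00402). Adgre1, which encodes F4/80 (2.99), Slpi, a protease inhibitor (2.94), Cd14, a co-receptor for lipopolysaccharide (2.42), and Lyz2, lysozyme (1.45), also rose. Not called were Ccr2, the receptor that directs monocytes out of the marrow (1.04, called with 6 libraries but not without bulk CMP replicate 2), Cx3cr1 (0.04), Mpeg1, perforin 2 (0.59), and Lgals3, galectin 3 (0.43). The summed share of protein-coding counts was 0.308% to 0.318% in bulk GMPs and 0.133% to 0.143% in bulk CMPs.

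Among receptors for growth factors and cytokines, 2 of 23 tested rose and 4 fell, beside 2.9% and 5.35% of all genes tested, and 7 of 24 were called higher and 5 lower without bulk CMP replicate 2. Ifngr1, a chain of the interferon gamma receptor, rose with Csf1r and had 219, 204 and 228 CPM in bulk GMPs, against 88.8, 60.5 and 89.7 CPM in bulk CMPs (log2 fold change 1.44 ± 0.19 (SE), edgeR adjusted p = 0.00278). Flt3 was among those that fell, as were Tgfbr2, the type II TGF-beta receptor (-2.17), and Il1r1, the interleukin 1 receptor (-2.14). Csf3r, the receptor for G-CSF, had 93.9, 96.9 and 90.8 CPM in bulk GMPs, against 63.6, 88.5 and 61.1 CPM in bulk CMPs, and was not called (log2 fold change 0.41 ± 0.18 (SE), edgeR adjusted p = 0.197). Kit, by which both populations were sorted, was lower by less than 2-fold and so not called (-0.74, edgeR adjusted p = 0.0182). Csf2rb, the common beta chain, was called only without bulk CMP replicate 2 (0.83 with 6 libraries and 1.02 without it). Of 23 tested innate sensors, 4 rose and none fell, and 8 of 27 were called higher and 2 lower without bulk CMP replicate 2. Naip2, a sensor of bacterial secretion systems, had 62.4, 55.2 and 60.0 CPM in bulk GMPs, against 7.80, 10.1 and 15.8 CPM in bulk CMPs (log2 fold change 2.38 ± 0.27 (SE), edgeR adjusted p = 0.00136).

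Eosinophil and basophil genes were among the largest changes of the comparison. Prg2, the eosinophil major basic protein, had 84.3, 78.4 and 84.4 CPM in bulk GMPs, against 1.41, 3.46 and 0.248 CPM in bulk CMPs (log2 fold change 5.87 ± 0.54 (SE), edgeR adjusted p = 0.000608). Epx, eosinophil peroxidase, had 20.2, 29.8 and 28.5 CPM in bulk GMPs, against 0, 0 and 1.98 CPM in bulk CMPs (log2 fold change 5.03 ± 0.82 (SE), edgeR adjusted p = 0.00637), and Prg3, a relative of Prg2, was at least 29.1-fold higher in bulk GMPs. Of 12 members of the eosinophil list 5 were tested and 4 rose, with Siglecf not called (-0.23), and the median of the 5 on the log2 scale was 5.87, or 4.86 with Prg3 and Rnase12, which had no counts in bulk CMPs, at their bounds. Of 11 tested genes of basophils and mast cells, 3 rose and 3 fell, beside 2.9% and 5.35% of all genes tested. Prss34 and Mcpt8, proteases of basophils, rose (4.71 and 2.46), as did Hdc, which makes histamine (1.77), while Gata2 (-2.45), Itgb7 (-1.41) and Gzmb (-2.91) fell. Cpa3, the mast cell carboxypeptidase, had 35.1, 39.8 and 37.7 CPM in bulk GMPs, against 56.0, 49.9 and 51.4 CPM in bulk CMPs, and was not called. In bulk samples such as these, fewer cells of a type and less RNA per cell cannot be told apart.

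In the CD62L-sorted libraries, with CPM scaled over all 21, Prg2 and Mcpt8 were highest in 1 fraction of GMPs. Prg2 averaged 1061 CPM in CD62L-neg GMPs (844 to 1335), 4.08 CPM in CD62L-low GMPs and 1.32 CPM in CD62L-high GMPs, against 0.656 CPM in CD62L-low CMPs and 1.85 CPM in CD62L-high CMPs. Mcpt8 averaged 119, 4.54 and 2.56 CPM in CD62L-neg, CD62L-low and CD62L-high GMPs, against 0.284 and 3.18 CPM in CD62L-low and CD62L-high CMPs. All 4 eosinophil genes that rose in bulk GMPs were called higher in CD62L-neg GMPs than in CD62L-low CMPs, while between CD62L-high GMPs and CD62L-high CMPs Prg2 was not called (-0.46) and Epx, Prg3 and Rnase12 had too few counts to be tested. The difference between these 2 contrasts was not tested.

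Other genes with large increases lay outside these lists. Abca13, a lipid transporter, had 20.3, 15.2 and 16.2 CPM in bulk GMPs, against 0.128, 0 and 0 CPM in bulk CMPs, a ratio of pooled CPM of 334 with a 95% exact counting interval of 59.8 to 13200, since the bulk CMPs together held 1 count. Mgam, maltase-glucoamylase, had 38.4, 39.6 and 40.0 CPM in bulk GMPs, against 1.79, 1.44 and 0.991 CPM in bulk CMPs (log2 fold change 4.80 ± 0.28 (SE), edgeR adjusted p = 0.000101), and Gda, guanine deaminase, had 110.0, 98.5 and 112 CPM in bulk GMPs, against 3.58, 5.48 and 2.97 CPM in bulk CMPs (log2 fold change 4.80 ± 0.25 (SE), edgeR adjusted p = 8.67e-05). Every bulk CMP library was far below every bulk GMP library for both genes. Sgms2, a sphingomyelin synthase (5.68), Trem3, a receptor of myeloid cells (5.67), Aoah, which removes acyl chains from lipopolysaccharide (4.80), and Far2, a fatty acyl-CoA reductase (5.02), also rose.

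Transcription factors of both branches were among the genes that changed. Of 15 erythroid and megakaryocytic factors, all tested, 8 fell in bulk GMPs and none rose, beside 5.35% and 2.9% of all genes tested, with a median log2 fold change of -2.41. Zfpm1, the GATA partner FOG1, had 18.1, 10.8 and 13.1 CPM in bulk GMPs, against 212, 293 and 229 CPM in bulk CMPs (log2 fold change -4.13 ± 0.26 (SE), edgeR adjusted p = 0.000126). Gata2 had 55.9, 47.4 and 50.3 CPM in bulk GMPs, against 222, 369 and 251 CPM in bulk CMPs (log2 fold change -2.45 ± 0.23 (SE), edgeR adjusted p = 0.000606), and Gata1 had 0.988, 2.08 and 4.40 CPM in bulk GMPs, against 18.6, 18.7 and 10.8 CPM in bulk CMPs (log2 fold change -2.67 ± 0.53 (SE), edgeR adjusted p = 0.0155). The 2 populations did not overlap for any of these factors, although the call of Gata1 was lost without bulk GMP replicate 2 (edgeR adjusted p = 0.0836) and without bulk CMP replicate 1 (edgeR adjusted p = 0.0501). Gfi1b (-3.71), Meis1 (-2.76), Mecom (-2.41) and Tal1 (-1.78) also fell, Mecom with a call in 1 of the 6 fits that left out a library (edgeR adjusted p = 0.0538 to 0.113 in the other 5). Klf1, the erythroid Krüppel-like factor, had 0, 1.08 and 0.781 CPM in bulk GMPs, against 5.37, 10.7 and 4.58 CPM in bulk CMPs, and was called only without bulk CMP replicate 2 (log2 fold change -3.42 ± 0.94 (SE), edgeR adjusted p = 0.0502 with 6 libraries, and -2.98 without it). Fli1, which acts in megakaryocytes, was not called (-0.11), nor were Nfe2 (-0.45), Lyl1 (0.37) or Zbtb16 (0.14). Lmo2 (-0.81, edgeR adjusted p = 0.0299) and Ldb1 (-0.71, edgeR adjusted p = 0.0435) were lower by less than 2-fold and so not called.

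Of 16 granulocytic and monocytic factors 15 were tested, 3 rose and 1 fell, and 4 were called higher and 2 lower without bulk CMP replicate 2. Cebpe, needed for secondary granules, had 14.5, 13.9 and 18.3 CPM in bulk GMPs, against 3.07, 1.73 and 1.11 CPM in bulk CMPs (log2 fold change 2.96 ± 0.41 (SE), edgeR adjusted p = 0.00334), Gfi1 had 43.1, 46.2 and 49.2 CPM in bulk GMPs, against 13.6, 4.90 and 15.5 CPM in bulk CMPs (log2 fold change 1.98 ± 0.35 (SE), edgeR adjusted p = 0.00915, or 0.0528 without bulk GMP replicate 3), and Nfil3 rose by a smaller factor (1.08). The factor that fell was Egr1, an immediate early gene that was also put on this list for its part in monocytes. Spi1, which encodes PU.1, had 158, 131 and 132 CPM in bulk GMPs, against 109, 126 and 109 CPM in bulk CMPs, and was not called (log2 fold change 0.30 ± 0.16 (SE), edgeR adjusted p = 0.273). Cebpa had 160.0, 147 and 134 CPM in bulk GMPs, against 101, 172 and 104 CPM in bulk CMPs, so that bulk CMP replicate 2 lay above every bulk GMP library, and was not called (log2 fold change 0.23 ± 0.23 (SE), edgeR adjusted p = 0.574, or 0.53 without that library). Irf8 (0.85), Klf4 (0.83), Cebpb (0.56), Irf5 (0.28) and Zeb2 (0.29) had changes under the 2-fold limit, and Id2 was called lower only without bulk CMP replicate 2 (-1.91 with 6 libraries and -2.10 without it). Cebpe averaged 54.6 CPM in CD62L-neg GMPs and 3.19 CPM in CD62L-high GMPs, against 0.907 CPM in CD62L-low CMPs and 2.39 CPM in CD62L-high CMPs, and it was called between CD62L-neg GMPs and CD62L-low CMPs (5.90) and not between the CD62L-high populations (0.41).

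**Figure D3:**
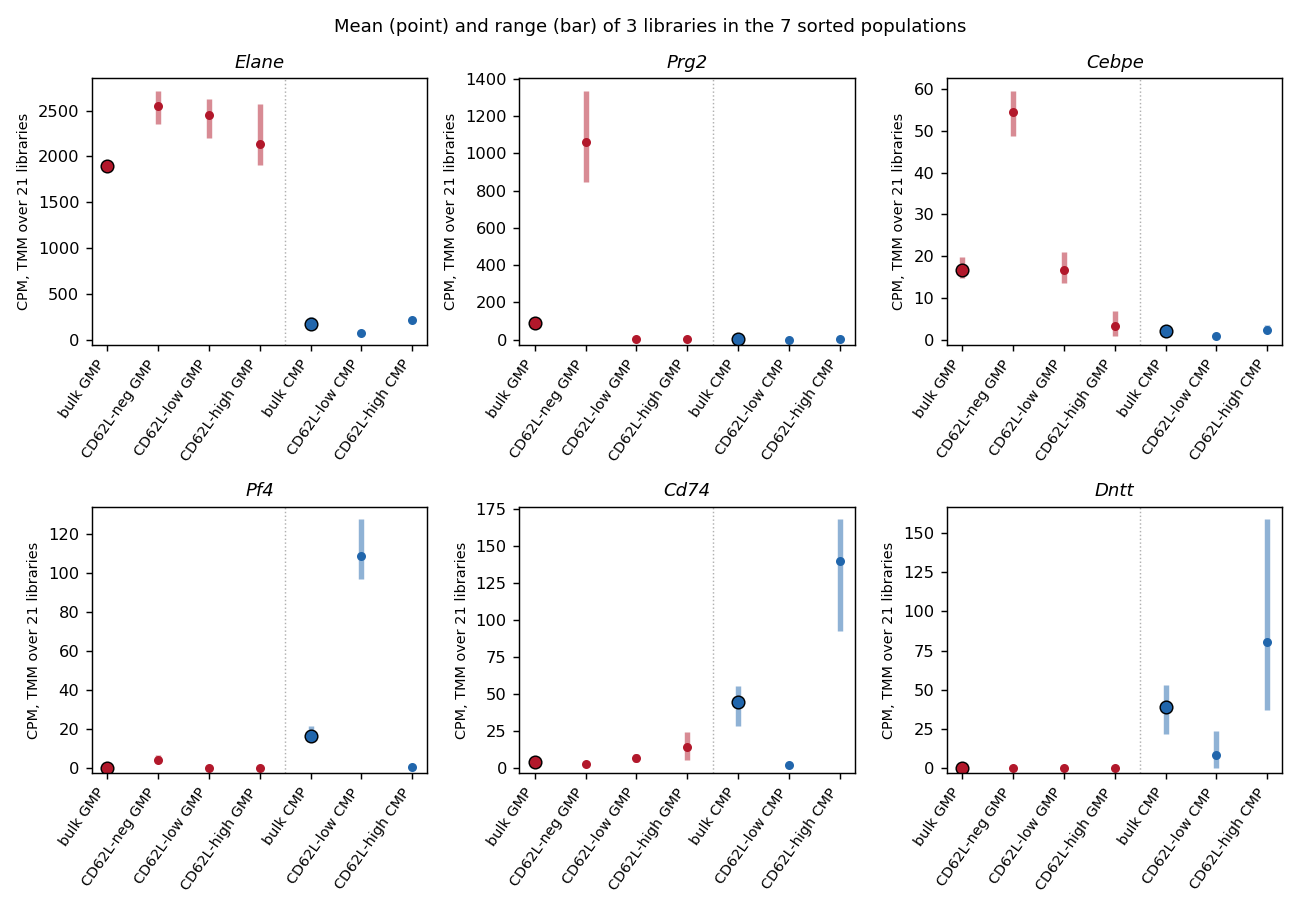
Levels of 6 genes in the 7 sorted populations, as mean CPM (points) and range of 3 libraries (bars), scaled over 21 libraries, GMP populations in red left of CMP populations in blue. Elane averaged 1894 to 2549 CPM in the GMP populations and 72.7 to 216 CPM in the CMP populations, whereas Prg2 and Cebpe were highest in CD62L-neg GMPs, Pf4 in CD62L-low CMPs, and Cd74 and Dntt in CD62L-high CMPs.

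Genes of erythroid cells and of megakaryocytes and platelets included those with the largest decreases. Aqp1, the water channel of erythrocytes, had 0 CPM in all 3 bulk GMPs, against 41.5, 33.7 and 35.7 CPM in bulk CMPs, at least 530-fold lower in bulk GMPs with 3 pooled counts as the floor. Car1, an erythroid carbonic anhydrase, had 0 CPM in all 3 bulk GMPs, against 12.7, 20.5 and 14.2 CPM in bulk CMPs, and was at least 207-fold lower. Of 22 erythroid genes 12 were tested, 8 fell and none rose, with a median log2 fold change of -4.12. Hemgn, a nuclear protein of erythroid cells (-5.61), Ermap, an erythroid membrane protein (-4.80), and Car2 (-3.44) were among them, and the spectrin gene Sptb and Tspo2 had no counts in bulk GMPs. Tfrc, the transferrin receptor that every dividing cell uses, was not called (0.39), nor was Cpox of heme synthesis (0.37). Alas1, the heme synthesis enzyme of non-erythroid cells, had 485, 439 and 473 CPM in bulk GMPs, against 101, 66.9 and 79.5 CPM in bulk CMPs (log2 fold change 2.50 ± 0.20 (SE), edgeR adjusted p = 0.000317), while its erythroid counterpart Alas2 had no count in any of the 6 libraries.

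Of 28 megakaryocyte and platelet genes 18 were tested, 15 fell and 2 rose, with a median log2 fold change of -5.02. Pf4, platelet factor 4, had 0.282, 0.144 and 0.0710 CPM in bulk GMPs, against 20.5, 14.1 and 13.2 CPM in bulk CMPs (log2 fold change -6.49 ± 0.50 (SE), edgeR adjusted p = 0.000317). F2r, a thrombin receptor, had 0.635, 1.15 and 2.13 CPM in bulk GMPs, against 80.5, 166 and 81.5 CPM in bulk CMPs (log2 fold change -6.37 ± 0.50 (SE), edgeR adjusted p = 0.000317). For both genes the lowest bulk CMP library lay far above the highest bulk GMP library. Vwf, von Willebrand factor, was lower in bulk GMPs (-5.27), and Mmrn1, multimerin 1, was at least 138-fold lower. The glycoproteins of the von Willebrand factor receptor also fell, with pooled ratios of bulk CMPs over bulk GMPs of 95.2 (31.9 to 467) for Gp5 and 61.0 (16.1 to 516) for Gp1ba (95% exact counting intervals, 3 and 2 counts in bulk GMPs) and a log2 fold change of -4.46 for Gp9. Itga2b, which encodes CD41, had 22.8, 19.3 and 18.0 CPM in bulk GMPs, against 98.3, 66.0 and 102 CPM in bulk CMPs (log2 fold change -2.15 ± 0.22 (SE), edgeR adjusted p = 0.000808), a smaller change than the median of the list. The 2 that rose were F13a1, the A chain of coagulation factor XIII, which monocytes also make, with 851, 848 and 846 CPM in bulk GMPs, against 276, 172 and 272 CPM in bulk CMPs (log2 fold change 1.82 ± 0.21 (SE), edgeR adjusted p = 0.00167), and Serpine2, protease nexin 1 (2.06). F13a1 held most of the counts of this list in bulk GMPs. The summed share of the list was higher in bulk GMPs, at 0.157% to 0.158% of protein-coding counts, against 0.118% to 0.125% in bulk CMPs, although its median member fell.

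The sequences upstream of 6 of these genes are shown because 2 primary granule genes rose together and 4 platelet genes fell together. Each is 120 bases long and ends at the base before the first base of the gene (for Elane, before the start of its GENCODE gene, which lies 65 bases upstream of the RefSeq start). Capitals mark matches on either strand to the motif GAGGAA of ETS factors, AGATAA of GATA factors, TTGCNNAA of C/EBP factors or TGTGGT of RUNX factors. The sequences are from RefSeq on GRCm38.p6, written 5′ to 3′ on the strand of the gene.
Elane (chr10:79886127-79886246, plus strand): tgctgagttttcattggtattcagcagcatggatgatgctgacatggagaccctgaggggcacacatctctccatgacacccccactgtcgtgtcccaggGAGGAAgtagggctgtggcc
Ctsg (chr14:56102575-56102694, minus strand): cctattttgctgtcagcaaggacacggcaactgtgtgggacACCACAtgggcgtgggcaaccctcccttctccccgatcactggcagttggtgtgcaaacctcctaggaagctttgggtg
Pf4 (chr5:90772315-90772434, plus strand): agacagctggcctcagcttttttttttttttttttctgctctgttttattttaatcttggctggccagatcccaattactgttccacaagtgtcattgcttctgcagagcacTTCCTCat
Gp9 (chr6:87777950-87778069, plus strand): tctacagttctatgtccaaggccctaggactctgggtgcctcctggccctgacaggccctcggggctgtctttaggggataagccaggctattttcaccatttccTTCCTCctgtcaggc
Gp1ba (chr11:70639002-70639121, plus strand): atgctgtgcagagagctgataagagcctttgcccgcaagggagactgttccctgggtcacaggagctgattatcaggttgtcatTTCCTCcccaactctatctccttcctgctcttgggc
Gp5 (chr16:30310782-30310901, minus strand): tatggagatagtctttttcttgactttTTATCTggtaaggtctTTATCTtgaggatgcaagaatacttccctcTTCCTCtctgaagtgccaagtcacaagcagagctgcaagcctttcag
The letters GAGGAA were found in 5 of the 6, AGATAA only in that of Gp5 and TGTGGT only in that of Ctsg. Looser forms of these motifs, such as the TGATAA in the sequence of Gp1ba, were not searched or marked. Over the 250 bases upstream, 23.9% of 272 promoters of genes that rose, 24% of 470 of genes that fell and 22.4% of 8787 of all genes tested held the ETS motif. The GATA motif was in 6.25%, 7.87% and 5.69% of the same sets, the C/EBP motif in 10.7%, 5.53% and 7.12%, and the RUNX motif in 14.7%, 10% and 10.5%. These matches are a description of letters, no test was made, and genes without a promoter in the table were left out.

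Most of the tested genes of stem and multipotent progenitors fell. Of 28 listed, 23 were tested, 15 fell and none rose, with a median log2 fold change of -2.77 and not 1 positive value among the 23. Mn1, a transcriptional cofactor, had 0 CPM in all 3 bulk GMPs, against 13.6, 21.9 and 4.33 CPM in bulk CMPs, at least 158-fold lower, and Hlf, a transcription factor of stem cells, had 2.68, 3.45 and 5.82 CPM in bulk GMPs, against 32.4, 37.8 and 47.1 CPM in bulk CMPs (log2 fold change -3.29 ± 0.33 (SE), edgeR adjusted p = 0.000779). Angpt1, which encodes angiopoietin 1, had 22.8, 23.8 and 18.6 CPM in bulk GMPs, against 187, 82.4 and 176 CPM in bulk CMPs (log2 fold change -2.77 ± 0.31 (SE), edgeR adjusted p = 0.00135). Sox4 (-2.02), Gcnt2, a glycosyltransferase (-2.94), and the endothelial and stem cell receptor Robo4, at least 87.2-fold lower, fell too, whereas Cd48, which marks committed progenitors, was not called (log2 fold change -0.02, 31.8 ± 3.70 CPM in bulk GMPs and 32.3 ± 1.14 CPM in bulk CMPs, SD, n = 3 each). The list took 0.0546% to 0.0591% of the protein-coding counts of bulk GMPs and 0.231% to 0.256% of those of bulk CMPs.

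Several early lymphoid and antigen presentation genes were likewise lower. Dntt, terminal deoxynucleotidyl transferase, had 0, 0.215 and 0.0710 CPM in bulk GMPs, against 39.9, 20.8 and 50.7 CPM in bulk CMPs (log2 fold change -8.45 ± 0.64 (SE), edgeR adjusted p = 0.000281). Flt3, the cytokine receptor of multipotent and lymphoid progenitors, had 16.5, 16.7 and 15.2 CPM in bulk GMPs, against 177, 141 and 156 CPM in bulk CMPs (log2 fold change -3.29 ± 0.17 (SE), edgeR adjusted p = 8.67e-05), and Satb1, a chromatin organizer, also fell (-1.41), so that 3 of the 7 tested lymphoid genes fell and none rose. Ikzf1 (-0.39), Notch1 (-0.77) and Ets1 (0.21) were not called. Of 13 tested genes of dendritic cells and antigen presentation 7 fell and 1 rose. Cd74, the invariant chain, had 2.96, 6.39 and 2.91 CPM in bulk GMPs, against 48.6, 27.4 and 52.5 CPM in bulk CMPs (log2 fold change -3.40 ± 0.40 (SE), edgeR adjusted p = 0.00162), and the MHC class II chains H2-Aa (-3.36), H2-Ab1 (-2.68) and H2-Eb1 (-3.35) fell with it. The gene that rose was Ctsh, cathepsin H (2.08).

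The same lists were looked up in the CD62L-sorted libraries. All 7 dendritic and antigen presentation genes that fell were called lower in CD62L-high GMPs than in CD62L-high CMPs, and 1 of the 6 of them tested between CD62L-neg GMPs and CD62L-low CMPs. Cd74 averaged 14.0 CPM in CD62L-high GMPs, against 139.9 CPM in CD62L-high CMPs. In CD62L-neg GMPs it averaged 2.85 CPM, against 1.75 CPM in CD62L-low CMPs. Of the 8 erythroid genes that fell, all were called lower between CD62L-neg GMPs and CD62L-low CMPs. Between the CD62L-high populations 3 of them were tested, Car2, Hemgn and Tfr2, and all 3 were called lower, while the other 5 had too few counts. Pf4 had 2.60 to 6.73 CPM in CD62L-neg GMPs, against 97.3 to 128 CPM in CD62L-low CMPs, and 0 to 0.402 CPM in CD62L-high GMPs, against 0 to 0.508 CPM in CD62L-high CMPs. Car1 was at 79.4 CPM in CD62L-low CMPs and at 0.156 CPM in CD62L-high CMPs. Whether the contrasts differed was not tested.

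**Figure D4:**
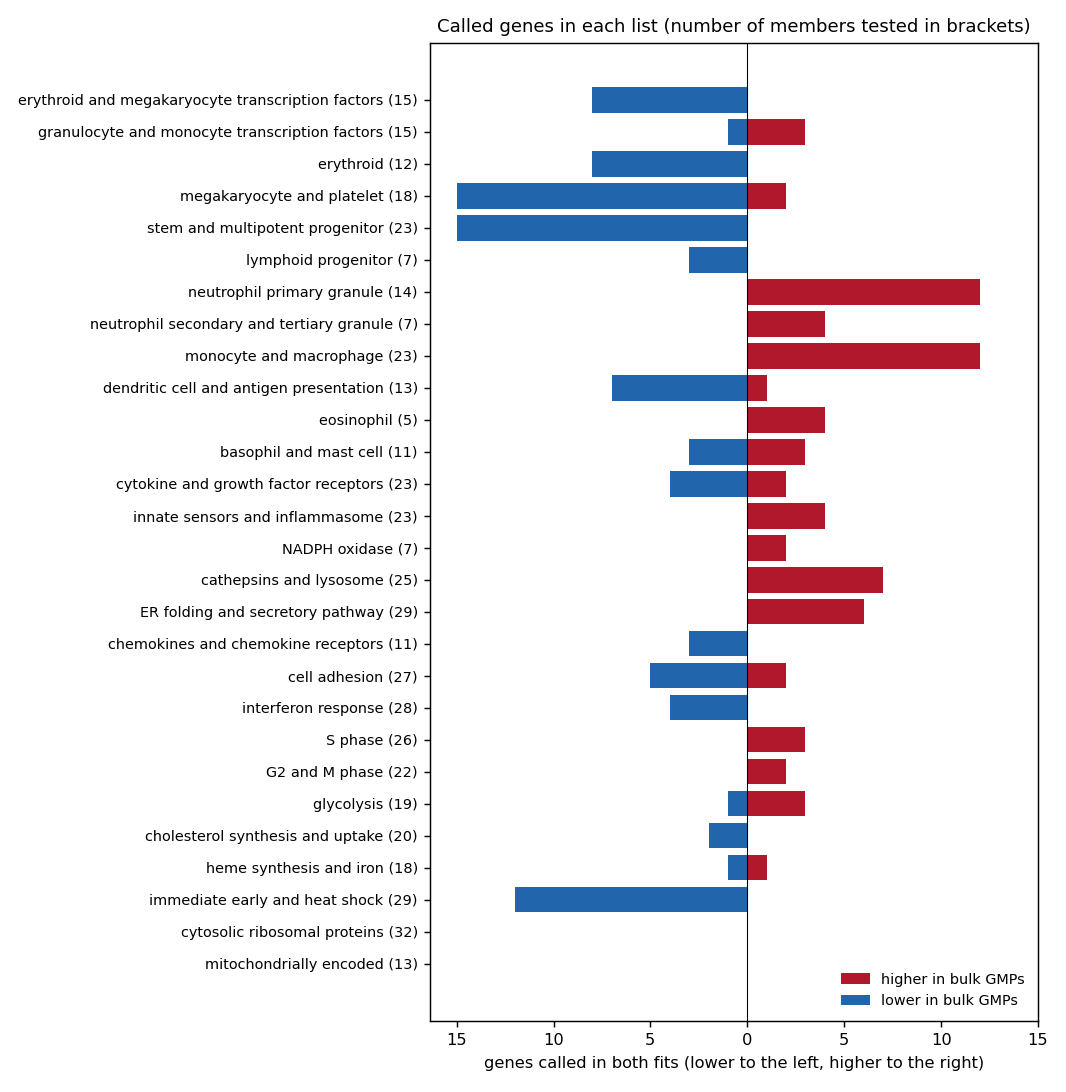
Number of genes of each list that fell (blue, to the left) or rose (red, to the right) in bulk GMPs in both fits, with the number of members tested in brackets. The longest bars are the 15 megakaryocyte, 15 stem cell and 12 immediate early genes that fell and the 12 primary granule and 12 monocyte genes that rose, and no cytosolic ribosomal protein or mitochondrially encoded gene was called.

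Immediate early genes, which are switched on within minutes of a stimulus or of tissue dissociation, were in part lower in bulk GMPs. Of 29 tested immediate early and heat shock genes 12 fell and none rose. Egr1 had 36.6, 34.0 and 29.6 CPM in bulk GMPs, against 293, 604 and 324 CPM in bulk CMPs (log2 fold change -3.60 ± 0.31 (SE), edgeR adjusted p = 0.000479), Nr4a1, an orphan nuclear receptor, had 35.7, 35.8 and 44.2 CPM in bulk GMPs, against 335, 767 and 350.1 CPM in bulk CMPs (log2 fold change -3.65 ± 0.36 (SE), edgeR adjusted p = 0.000727), and Junb had 75.8, 67.3 and 79.1 CPM in bulk GMPs, against 279, 418 and 251 CPM in bulk CMPs (log2 fold change -2.09 ± 0.23 (SE), edgeR adjusted p = 0.00104). In each of these genes bulk CMP replicate 2 held the highest value, and the other bulk CMPs also lay above all bulk GMPs. The 5 most abundant of all genes that fell were Zfp36l2 (-1.71) and Zfp36 (-2.11), which destabilize mRNAs with AU-rich elements, Jund (-1.56), the adhesion receptor Adgrg1 (-2.56) and the kinase Pim1 (-1.86). Zfp36l2 had 433, 445 and 438 CPM in bulk GMPs, against 974, 2351 and 989 CPM in bulk CMPs, and its call was lost without any 1 of the bulk GMP libraries (edgeR adjusted p = 0.0849 to 0.09). Those fits kept bulk CMP replicate 2, without which Zfp36l2 had a log2 fold change of -1.15 (edgeR adjusted p = 1.22e-14). Fos had 592, 591 and 618 CPM in bulk GMPs, against 584, 698 and 612 CPM in bulk CMPs, and was not called, nor were the heat shock genes Hspa8 (0.40), Hsp90aa1 (0.71), Hspa1a (0.43) and Hspa1b (0.82). The median of the 29 genes was -1.0.

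Some chemokine and interferon response genes also fell. Ccl4, a chemokine that macrophages secrete, had 24.5, 17.5 and 21.1 CPM in bulk GMPs, against 109, 323 and 112 CPM in bulk CMPs (log2 fold change -3.10 ± 0.44 (SE), edgeR adjusted p = 0.00385). With it Ccl3 (-1.62) and Cxcl2 (-1.44) made 3 of 11 chemokine genes that fell, with none that rose, beside 5.35% and 2.9% of all genes tested. Cxcr4, the receptor that holds cells in the marrow, had 109, 99.7 and 94.9 CPM in bulk GMPs, against 37.2, 97.4 and 57.0 CPM in bulk CMPs, and was called only without bulk CMP replicate 2 (1.11). Of 28 tested interferon response genes 4 fell and none rose (median -0.53 over the 28), beside 5.35% and 2.9% of all genes tested. Those that fell had -2.29 for Oasl2, -2.22 for Oas3, -2.11 for Ddx58, which encodes the RNA sensor RIG-I, and -1.71 for Irf7.

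Of 29 genes of protein folding and secretion in the endoplasmic reticulum 6 rose and none fell, beside 2.9% and 5.35% of all genes tested. Among them were P4hb, a protein disulphide isomerase, at 1035, 951 and 987 CPM in bulk GMPs, against 394, 284 and 403 CPM in bulk CMPs (log2 fold change 1.46 ± 0.19 (SE), edgeR adjusted p = 0.00237), Rpn1 (1.19) and Ostc (1.42). With 6 libraries 12 of the 29 were called, and 6 of them not without bulk CMP replicate 2. That library was low for Hspa5, the chaperone BiP, which had 1315, 1215 and 1259 CPM in bulk GMPs, against 864, 335 and 890.0 CPM in bulk CMPs, and was not called. Of 25 genes of the lysosome 7 rose, beside 2.9% of all genes tested. Ctsz was among them (1.56), while Psap and Man2b1 were not called (0.72 and 0.69). Lamp1 was called only without bulk CMP replicate 2 (0.94 with 6 libraries and 1.21 without it). Of 19 glycolytic genes 3 rose and 1 fell, beside 2.9% and 5.35% of all genes tested. Hk3, the hexokinase of myeloid cells, had 288, 265 and 277 CPM in bulk GMPs, against 135, 96.8 and 110.5 CPM in bulk CMPs (log2 fold change 1.28 ± 0.17 (SE), edgeR adjusted p = 0.003), Eno1 also rose (1.47), and Slc2a3, a glucose transporter, fell (-2.30). Of 20 genes of cholesterol synthesis and uptake 2 fell, Srebf2 (-1.20) and Lss (-1.40), beside 5.35% of all genes tested, and Lss was called in 1 of the 6 fits that left out a library.

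With 6 libraries all 26 S phase genes and all 22 genes of G2 and M phase had positive log2 fold changes. Bulk CMP replicate 2 was low for both lists, and the signs were not counted without it. The medians were 0.47 and 0.74 with 6 libraries and 0.32 and 0.57 without that library, beside 0.0 over all genes tested in each fit. Of the 26 and 22 genes, 3 and 2 passed as risen, beside 2.9% of all genes tested. The S phase list took 0.664% to 0.682% of protein-coding counts in bulk GMPs, against 0.577% and 0.595% in bulk CMP replicates 1 and 3 and 0.354% in bulk CMP replicate 2. Mki67, a marker of dividing cells, had 951, 919 and 1026 CPM in bulk GMPs, against 642, 172 and 669 CPM in bulk CMPs, and was not called (log2 fold change 0.96 ± 0.43 (SE), edgeR adjusted p = 0.198, or 0.57 without bulk CMP replicate 2). Rrm2, a subunit of ribonucleotide reductase, rose and had 122, 122 and 108 CPM in bulk GMPs, against 50.0, 32.3 and 43.1 CPM in bulk CMPs (log2 fold change 1.48 ± 0.19 (SE), edgeR adjusted p = 0.0025). None of 32 cytosolic ribosomal protein genes was called (median 0.23, or -0.01 without bulk CMP replicate 2), and bulk CMP replicate 2 gave 2.21% of its protein-coding counts to them, against 3.81% to 4.12% in the other 5 libraries.

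In adhesion genes changes went both ways, with 2 risen and 5 fallen of 27 tested, beside 2.9% and 5.35% of all genes tested. Itga1, the integrin alpha 1 chain, had 40.2, 56.7 and 52.8 CPM in bulk GMPs, against 2.69, 6.92 and 4.33 CPM in bulk CMPs (log2 fold change 3.50 ± 0.34 (SE), edgeR adjusted p = 0.00069), and Vcam1 also rose (2.30). Selp, P-selectin (-2.77), Itga9 (-4.48), Itgb7, Esam and Icam4 (-2.51) fell, of 27 genes tested (9 of 31 were called lower without bulk CMP replicate 2), and the abundant Cd44, Cd47 and Itga4 were not called (-0.14, -0.65 and -0.39). Of 3 tested markers of stroma and endothelium, Pdgfrb, a receptor for platelet-derived growth factor, and Col1a2 fell. Pdgfrb had 11.5, 5.31 and 10.8 CPM in bulk GMPs, against 55.5, 51.9 and 50.0 CPM in bulk CMPs (log2 fold change -2.51 ± 0.30 (SE), edgeR adjusted p = 0.00166), Col1a2 had 0 CPM in all 3 bulk GMPs, against 2.81, 2.88 and 1.11 CPM in bulk CMPs, and Pecam1, which haematopoietic cells also carry, was not called (-0.11). The 13 markers of that list summed to 0.0133% to 0.0164% of protein-coding counts in bulk GMPs and 0.022% to 0.0293% in bulk CMPs, while Dcn, Lum, Col3a1 and Lepr of stromal cells had no count in any of the 6 libraries.

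The directions were looked up in libraries that the bulk comparison did not use, 2 contrasts of CD62L-sorted GMPs with CMPs. Whether they came from the same mice is not stated. Between CD62L-high GMPs and CD62L-high CMPs, 348 of 12956 genes (2.69%) were called higher and 612 (4.72%) lower. Of the 361 genes that rose in bulk GMPs 351 were tested there, 340 (96.9%) had the same sign and 193 (55%) were called higher. Of the 666 that fell, 603 were tested, 575 (95.4%) had the same sign and 342 (56.7%) were called lower, and no gene was called in the opposite direction. Between CD62L-neg GMPs and CD62L-low CMPs, 908 of 12754 genes (7.12%) were called higher and 999 (7.83%) lower. There 288 of 345 tested genes that rose (83.5%) and 412 of 635 that fell (64.9%) were called in the same direction, and 1 and 3 in the opposite one. In both contrasts 164 genes that rose and 209 that fell were called alike, and 36 and 101 were called in neither although tested in both.

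**Figure D5:**
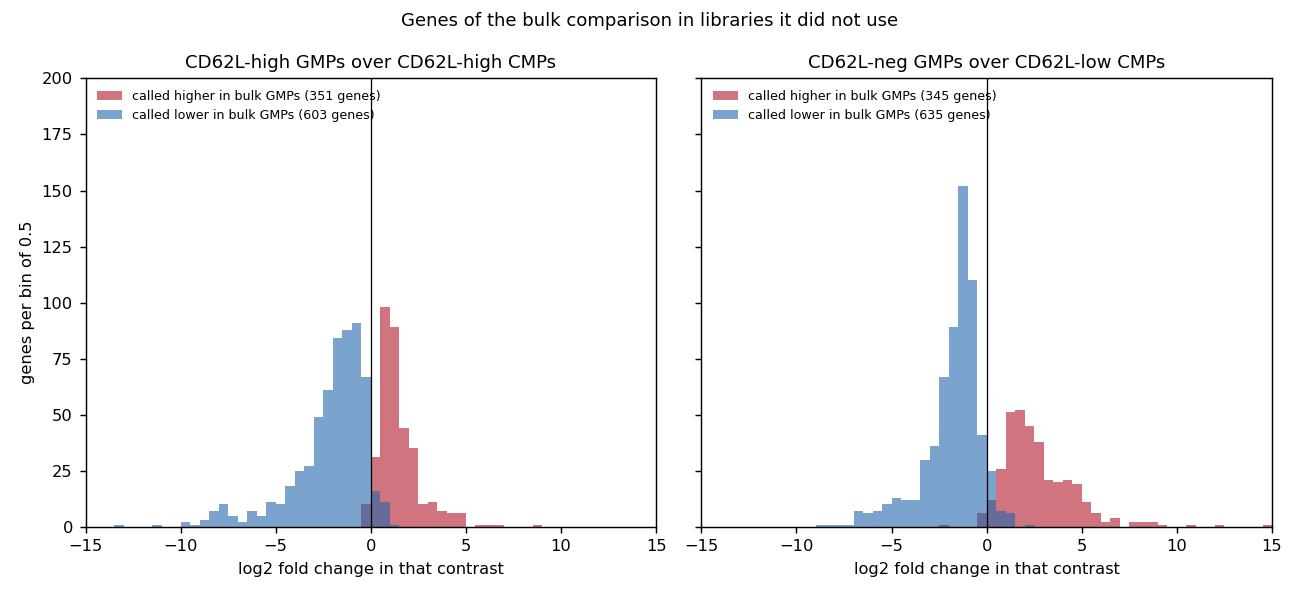
Distribution of log2 fold changes of the genes that rose (red) and fell (blue) in bulk GMPs, in the contrast of CD62L-high GMPs over CD62L-high CMPs (left) and of CD62L-neg GMPs over CD62L-low CMPs (right), in bins of 0.5. Medians were 1.19 and -1.64 on the left and 2.33 and -1.43 on the right, and both distributions lie mostly on their own side of 0.

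The genes called in opposite directions were Fn1, Ccl3, Cd244a and 9030619P08Rik, named here after their values were seen. Fn1, fibronectin, rose in bulk GMPs (30.4, 26.9 and 23.2 CPM in bulk GMPs, against 6.14, 10.4 and 11.3 CPM in bulk CMPs, log2 fold change 1.54 ± 0.28 (SE), edgeR adjusted p = 0.00992). In CD62L-neg GMPs it was lower than in CD62L-low CMPs (-2.13), with 1.15, 1.18 and 0.16 CPM in CD62L-neg GMPs, against 5.44, 1.53 and 3.92 CPM in CD62L-low CMPs. Ccl3 and Cd244a, a receptor of NK and myeloid cells also known as 2B4, fell in bulk GMPs (-1.62 and -2.77). Both were called higher in CD62L-neg GMPs than in CD62L-low CMPs (1.19 and 1.36), although the libraries overlapped. Ccl3 had 31.2, 39.1 and 35 CPM there, against 32.1, 7.78 and 5.67 CPM, and Cd244a 12.2, 13.2 and 8.01 CPM, against 8.47, 1.91 and 2.43 CPM. Scaled over all 21 libraries, bulk CMPs had 233, 521 and 225 CPM of Ccl3, also above CD62L-high CMPs (108, 146 and 151 CPM). 9030619P08Rik is annotated as a pseudogene and may share reads with related copies.

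Some genes were called only with or only without bulk CMP replicate 2. With it 41 genes were called higher and 75 lower that were not called without it, and without it 212 and 313 were gained, 185 and 192 of them among the genes tested with 6 libraries. Pdia3, a disulphide isomerase, had 634, 606 and 609 CPM in bulk GMPs, against 342, 124 and 308 CPM in bulk CMPs, and its log2 fold change was 1.25 with 6 libraries and 0.93 without bulk CMP replicate 2. Klf16 had 14.2, 16.8 and 15.8 CPM in bulk GMPs, against 31.9, 73.8 and 24.5 CPM in bulk CMPs, with -1.45 and -0.84. In both genes that library lay far from the other bulk CMPs on the side that widened the difference. Sec61g, a subunit of the translocon, had 18.8, 15.2 and 18.1 CPM in bulk GMPs, against 3.84, 14.7 and 3.96 CPM in bulk CMPs, where the library lay near the bulk GMPs, and its log2 fold change was 1.30 with 6 libraries and 2.16 without it.

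Small nucleolar RNAs were a further group in which that library stood out. Of the genes that fell 11 were snoRNAs and 2 small Cajal body RNAs, a group noticed after the values were seen. How many such RNAs were tested is not given here, so this count cannot be set against the 5.35% of all genes tested that fell. Snord32a had 5.29, 5.24 and 4.04 CPM in bulk GMPs, against 18.4, 95.4 and 14.5 CPM in bulk CMPs (log2 fold change -3.10 ± 0.70 (SE), edgeR adjusted p = 0.0254, or -1.75 without bulk CMP replicate 2), and Scarna2 had 53.3, 58.3 and 56.0 CPM in bulk GMPs, against 126, 605 and 126 CPM in bulk CMPs (log2 fold change -2.35 ± 0.59 (SE), edgeR adjusted p = 0.0374, or -1.16). The remaining bulk CMPs were above all bulk GMPs for both, by a smaller factor. The part of the ribosomal RNA share of that library, 61.0% of its counts, in these values was not tested.

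Calls were also repeated with each library left out in turn, and all of these fits but the one without bulk CMP replicate 2 kept that library. Of the 1027 genes, 164 that rose and 301 that fell were called in every one of these 6 fits. Of the 121 genes named by rule that rose or fell, 92 were called in all 6 fits, and the other 29 lost the call in at least 1 fit without a bulk GMP library, 18 of them also without bulk CMP replicate 1 or 3. Besides the genes given above, Cdc45, Ccl3, Ncf4, Oas3 and Zfp36 were called in 3 of the 6 fits, Gzmb in 4, Esam, H2-Eb1, Icam4, Tspo2, Vcam1 and Col1a2 in 2, and Irf7, Rnase12, Hsp90b1 and Wfdc21 in 1. Of genes given above outside that rule, Ctsc, Fn1, Cd244a and Gp1ba were called in 4 of the 6 fits, Gp9, Snord32a and Scarna2 in 3, Ermap in 2 and 9030619P08Rik in 1. No gene named by rule was called in the opposite direction in any of these fits.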

How the data were processed

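RNA was sequenced from sorted mouse bone marrow progenitors in 21 libraries, 3 for each of 7 populations. The study's methods name a SMART-Seq v4 kit and the labels a SMARTer Stranded kit. According to the labels and methods, reads were trimmed with Trim Galore, aligned to mm10 with HISAT2 and counted per gene with HTSeq, with versions and strand setting not given in the sources used here. The deposited table holds the raw count of each gene and library as made by the authors. Of its 47643 identifiers 99.12% matched GENCODE vM21. The study left out 1 bulk CMP sample for a low mapping rate without naming it.

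Bulk GMPs were compared with bulk CMPs in edgeR 4.0.16 (R 4.3.3, limma 3.58.1): low counts were removed with filterByExpr, TMM factors computed, and a quasi-likelihood F test fitted to the 6 bulk libraries, with Benjamini-Hochberg adjustment over all genes tested, thresholds of 0.05 and 2-fold, and standard errors taken as the log2 fold change over the square root of F. CPM use TMM factors of the 6 libraries, or of all 21 where populations are compared. The fit was repeated without bulk CMP replicate 2, without each other library, with DESeq2 1.42.0, RLE factors, other filters, 12 and 21 libraries, and a replicate block. The main fit did not take the replicate numbers to pair the libraries, and the replicate block is the alternative. Deviations of same-numbered libraries from their population mean correlated at 0.0574, 0.0679 and 0.00297. In bulk CMPs these deviations were set largely by replicate 2, which stood apart, so the correlations cannot decide whether libraries were paired. Intervals of ratios and floors of 3 counts cover counting error only.

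The genes described were those with the largest changes, the highest levels and the members of 35 gene lists. The comparison, these lists and the rule were chosen with earlier results of these data known, and genes named outside the rule are said to be so. Some genes are not reported here.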

Additional observations from a re-analysis of the deposited data

Results flagged for a closer look

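Of the genes called against the bulk direction, 2 had opposite signs in the 2 CD62L-sorted contrasts with every GMP library on one side of the CMP libraries in each. Genes outside that group also had opposite signs. Cpa3 had log2 fold changes of -10.9 between the CD62L-high populations (edgeR adjusted p = 8.2e-05) and 2.23 between CD62L-neg GMPs and CD62L-low CMPs (edgeR adjusted p = 1.51e-06). Its levels there are not given here, and a fitted value as large as -10.9 may depend on the prior count. Ets1 had -3.2 and 2.07 in the same contrasts. The difference between the contrasts was not tested. Fn1, fibronectin, was higher in CD62L-high GMPs than in CD62L-high CMPs (log2 fold change 2.23), with 87.6, 71.5 and 64.1 CPM in CD62L-high GMPs, against 23.1, 13.8 and 10.1 CPM in CD62L-high CMPs. It was lower in CD62L-neg GMPs than in CD62L-low CMPs (-2.13).

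9030619P08Rik, a transcribed unprocessed pseudogene on chromosome 15, had no counts in CD62L-high GMPs, against 0.7 to 3.1 CPM in CD62L-high CMPs, so that its fitted value of -7.88 depends on the prior count. In CD62L-neg GMPs it was higher than in CD62L-low CMPs (2.14), with 3.1, 1.8 and 3.1 CPM in CD62L-neg GMPs, against 0.7, 0.9 and 0.1 CPM in CD62L-low CMPs. Counts of this gene were few, and related copies may share its reads.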

How the results depend on the processing

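Leaving out 1 library gave 187 to 573 genes called higher and 364 to 979 called lower in bulk GMPs, beside 402 and 741 with all 6 libraries. The highest counts came without bulk CMP replicate 2, and without any 1 bulk GMP library the counts were 187 to 198 and 364 to 385. A test against a 2-fold change (glmTreat) called 114 higher and 267 lower. The adjusted p alone called 627 higher, a fit to 12 libraries 1160 lower, and a fit to 21 libraries 620 higher. The remaining settings stayed within 1.5 times of 402 and 741. No call changed direction, but without bulk CMP replicate 2 the log2 fold changes of genes that were not called, Rac1 (0.15), Rac2 (0.38), Fos (0.02) and Cd44 (0.13), had the other sign. DESeq2 called 1025 of the 1027 genes that rose or fell in both fits. With the replicate block, 334 genes were called higher and 586 lower, and 302 and 535 rose and fell both with and without bulk CMP replicate 2. The numbers were not taken to pair the libraries.

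Bulk CMP replicate 2 held 1888499 protein-coding counts, which limits genes of low level in that library. With 3 libraries a population the spread of each gene rests in part on the trend over all genes. The standard error of Mpo, for example, was 0.19 with 6 libraries and 0.03 without bulk CMP replicate 2.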

Other observations

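Further genes that rose or fell in both fits belong to none of the lists and were picked after their values were seen. C3, complement component 3, had 310.4, 270.5 and 292 CPM in bulk GMPs, against 19.6, 10.9 and 17.3 CPM in bulk CMPs (log2 fold change 4.17 ± 0.24 (SE), edgeR adjusted p = 0.000103). Among those that rose were 4 enzymes, with log2 fold changes of 2.22 for the glutathione reductase Gsr, 1.64 and 1.33 for Pgd and G6pdx of the pentose phosphate pathway, and 1.68 for the cytosolic isocitrate dehydrogenase Idh1. Lta4h, which makes leukotriene B4 (2.03), and Anxa1, annexin A1 (2.04), also rose, as did F10, coagulation factor X (4.40), the adhesion molecule Ncam1 (4.43) and Xdh, xanthine dehydrogenase (3.17).

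Among genes that fell were Hmga2, an architectural chromatin protein with 1.48, 1.29 and 2.56 CPM in bulk GMPs, against 29.6, 49.9 and 33.6 CPM in bulk CMPs (log2 fold change -4.39 ± 0.36 (SE), edgeR adjusted p = 0.000357), Bach2, a transcriptional repressor of lymphoid cells (-3.71), Runx2 (-1.92), Bcl11a (-1.49) and the RNA-binding protein Msi2 (-1.87). Of receptors of the TGF-beta family, Tgfbr3 (-4.56) and Eng, endoglin (-1.54), were lower in bulk GMPs together with Tgfbr2 (-2.17), while Tgfbr1 was not called (-0.58). Mfsd2b, the sphingosine-1-phosphate exporter of erythrocytes and platelets, had 0.917, 0.933 and 0.355 CPM in bulk GMPs, against 45.2, 90.8 and 36.3 CPM in bulk CMPs (log2 fold change -6.25 ± 0.50 (SE), edgeR adjusted p = 0.000344), and Pear1, a platelet receptor, also fell (-4.12). No set test was made on these genes.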
